A study of Homo sapiens with 6 samples.

Results

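The Hippo kinase cascade was followed through 10 genes: the kinases STK3, STK4, LATS1 and LATS2, the scaffold and adaptor genes SAV1, MOB1A, MOB1B and NF2, and the effectors YAP1 and WWTR1. They were taken by gene name from the deposited expression table, which listed 27009 genes, and all 10 were among the 15076 genes that passed the filter on low values. RNA sequencing had been done on Hep3B, a human hepatocellular carcinoma line, in 3 vector libraries and 3 nPD-L1 libraries. Cells of both groups had lost their own PD-L1 (gene CD274) by knockout. The vector group carried an empty vector, and the nPD-L1 group carried PD-L1 with its LCL residues mutated to ACA, a form that collects in the nucleus. That construct was driven by a CMV promoter and delivered by lentivirus to make stable cells, so its level was not under the control of the gene's own promoter. The comparison asks how transcripts differ between stable cells with this nuclear form and stable cells with empty vector. No library carried unmutated PD-L1. Nuclear placement therefore cannot be told apart from the presence of PD-L1, or from other differences between the stable cells of each group.

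The Hippo pathway restrains organ size and cell proliferation. STK3 and STK4, bound to the scaffold SAV1 and helped by NF2 at the membrane, phosphorylate LATS1 and LATS2 and their coactivators MOB1A and MOB1B, and the LATS kinases then phosphorylate YAP1 and WWTR1. The phosphorylated effectors are held in the cytoplasm or degraded, whereas the unphosphorylated ones enter the nucleus and switch on target genes with TEAD transcription factors. In liver the pathway is known as a brake on hepatocyte growth, and LATS2 is itself a known target of YAP1 and TEAD, which closes a feedback loop. Transcript levels do not measure these phosphorylations.

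Values are scaled reads, that is, reads per gene divided by a size factor of the library, and their sums over all genes lay between 18082164 and 19682128. CD274 read 28.3, 38.4 and 47.8 scaled reads in vector libraries 1 to 3 and 16.8, 19.2 and 30.9 in nPD-L1 libraries 1 to 3. It did not pass the test (log2 fold change -0.76, limma adjusted p = 0.338). Whether reads of the construct were counted under CD274 is not given in the sources used here, so this value may not measure the transgene, and directions below are those of the libraries as labelled. Of 10 hepatocyte markers, 9 were in the table and only FGB, a fibrinogen chain, was above 10 scaled reads in every library, whereas ALB, APOA1, APOB, TTR, TF and AHSG were near 0. HNF4A, a transcription factor of hepatocytes, read 19.2, 11.3 and 6.24 in vector and 51.3, 51.6 and 33.8 in nPD-L1 libraries, without overlap. The summed hepatocyte markers, nearly all FGB, spanned 982 to 1565 in vector and 1065 to 1180 in nPD-L1 libraries. Of 12 fibroblast, leukocyte and endothelial markers, 8 were in the table and their sum was 176 to 252 in vector and 590 to 659 in nPD-L1 libraries. COL1A1, a collagen chain, read 49.9 to 82.8 in vector and 445 to 487 in nPD-L1 libraries, while LUM, another matrix gene, read 99.9 to 182 and 112 to 161. DCN and PDGFRB, the other fibroblast markers in the table, stayed at or below 8.31 in every library, so the higher sum was mostly COL1A1. PTPRC, LYZ, PECAM1 and VWF, which mark leukocytes and endothelium, were near 0 in every library. The part of HNF4A, COL1A1 and the other markers in the results was not tested. The study calls the libraries of a group independent samples but the labels do not say that they came from separate cultures, so p-values here measure only the spread between these libraries.

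LATS2 and YAP1 are the members whose RefSeq promoters (300 bases, GRCh38.p14) held the core of the TEAD recognition sequence, GGAATG, searched on both strands. These windows are shown because LATS2 was the most changed member and TEAD is the partner of YAP1. Capitals mark the motif, which begins at position 10 from the RefSeq start site of LATS2 and at -162 from that of YAP1. These start sites are not those of the deposited gene coordinates, 21061547 for LATS2 and 102110461 for YAP1. Both windows thus lie upstream of the genes as deposited. The windows lie at chr13:21061561-21061588 (minus strand) and chr11:102110274-102110301 (plus strand).
LATS2: gtgacgcccgtGGAATGccaacaatgta
YAP1: gggagtgtgcaGGAATGtagcaacttgc
Of 9 members with a promoter in the RefSeq tables used, 2 held this motif, beside 16.7% of all 27305 genes with such a promoter. The pattern TGANTCA, a loose form of the AP-1 site with any base at N, occurred as TGAATCA in LATS1 and TGATTCA in MOB1B. Neither is the usual AP-1 site, which has C or G at N. Promoters of 9.37% of all genes held the loose pattern. The SMAD palindrome GTCTAGAC occurred in no member promoter and in promoters of 0.256% of all genes.

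LATS2, STK4 and YAP1 promoters also held the E-box CACGTG, a motif looked for after their sequences had been read and found in promoters of 8.77% of all genes. In LATS2 it begins at position -5 from the RefSeq start site, so that the TEAD core follows it closely. Capitals mark the E-box at chr13:21061575-21061602 (minus strand), chr11:102110233-102110260 and chr20:44966402-44966429 (both plus strand).
LATS2: ggaggcggggtCACGTGacgcccgtgga
YAP1: ggcgagcgggtCACGTGcggccgggaga
STK4: cacgcccgaacCACGTGatcagggccgt
A match in these windows is a description of the letters and not of binding.

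The 250 bases before the RefSeq start sites of LATS2 (chr13:21061587-21061836) and SAV1 (chr14:50668307-50668556), both on the minus strand, are given because these were the members that passed the test. Neither stretch held a complete copy of the 4 motifs searched.
LATS2: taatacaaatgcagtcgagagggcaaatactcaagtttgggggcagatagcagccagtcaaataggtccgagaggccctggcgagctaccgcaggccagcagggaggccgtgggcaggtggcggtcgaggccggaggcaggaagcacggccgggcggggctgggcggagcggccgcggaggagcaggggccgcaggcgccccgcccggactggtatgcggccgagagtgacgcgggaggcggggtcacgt
SAV1: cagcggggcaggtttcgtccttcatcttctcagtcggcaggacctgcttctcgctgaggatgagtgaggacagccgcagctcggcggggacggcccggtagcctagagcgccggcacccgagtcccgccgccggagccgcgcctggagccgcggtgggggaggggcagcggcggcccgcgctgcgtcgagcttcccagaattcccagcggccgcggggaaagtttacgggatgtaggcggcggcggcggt

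Among the 10 members, LATS2 and SAV1 were higher in nPD-L1 than in vector libraries and none was lower at a limma adjusted p under 0.05. Of all tested genes 4.04% were called higher and 0.922% lower by the same rule. For 3 members, LATS2, SAV1 and WWTR1, the values of the groups did not overlap, as was so for 20.6% of all tested genes. The log2 fold change was positive for 8 members and negative for 2, with a median of 0.12 beside -0.019 over all tested genes, of which 46.7% were positive. The positive signs of LATS1, STK3, MOB1A and MOB1B each turned under some other processing. At an unadjusted limma p under 0.05, 2 members passed, beside 14.2% of all tested genes in either direction. No member was lower at that level in limma, or in edgeR or DESeq2 run on the 4 libraries whose reads could be recovered as whole numbers.

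**Figure D1:**
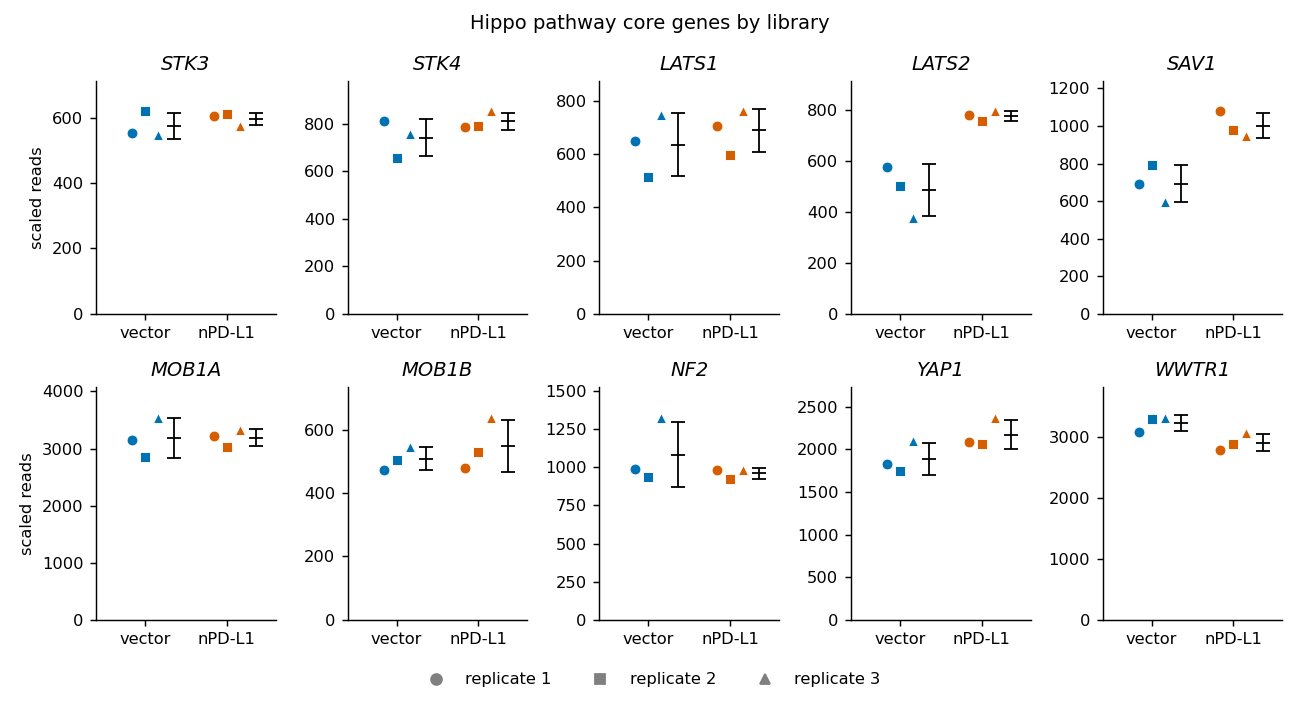
Scaled reads of the 10 Hippo genes in each library, on axes that start at 0, with marker shape giving the replicate number and the bar beside each group its mean ± SD (n = 3). The nPD-L1 values of LATS2 and SAV1 all lie above the vector values, those of WWTR1 all lie below, and the other 7 genes overlap.

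STK3 and STK4 encode the MST kinases at the head of the cascade. STK3 (ENSG00000104375, chromosome 8) read 553, 619 and 547 scaled reads in vector libraries 1 to 3 and 604, 610 and 575 in nPD-L1 libraries 1 to 3. STK4 (ENSG00000101109, GRCh38 chr20:44966474-45079959, plus strand) read 812, 657 and 755 in vector and 785, 791 and 852 in nPD-L1 libraries. The groups overlapped for both kinases, and vector 2 held both the highest vector value of STK3 and the lowest of STK4. The log2 fold change was 0.06 for STK3 (SE 0.11, 95% interval -0.18 to 0.30, limma adjusted p = 0.850). For STK4 it was 0.13 (SE 0.11, 95% interval -0.12 to 0.38, limma adjusted p = 0.671).

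LATS1 and LATS2 are the kinases that phosphorylate the effectors. LATS1 (ENSG00000131023, chr6:149658153-149718256, minus strand) read 648, 513 and 747 scaled reads in vector and 708, 599 and 761 in nPD-L1 libraries. In both groups replicate 2 was the lowest and replicate 3 the highest, and the ranges overlapped, with vector 2 below every nPD-L1 value. The log2 fold change of LATS1 was 0.13 (SE 0.15, 95% interval -0.21 to 0.46, limma adjusted p = 0.764), and it turned to -0.021 without vector 2.

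LATS2 (ENSG00000150457, chr13:20973032-21061547, minus strand) read 575, 501 and 375 scaled reads in vector libraries and 780, 756 and 793 in nPD-L1 libraries. All nPD-L1 values lay above all vector values. The nPD-L1 values were close together, with a highest value 1.05 times the lowest, while the vector values spread 1.53-fold and vector 3 was the lowest. The mean rose from 484 ± 101 to 776 ± 19.0 (SD, n = 3), a fold of 1.63 and a log2 fold change of 0.70 (SE 0.15, 95% interval 0.37 to 1.04, limma adjusted p = 0.0217). Without vector 3 the log2 fold change was 0.53 with a limma adjusted p of 0.0263. With 1 nPD-L1 library left out the call was lost, while the log2 fold change stayed between 0.69 and 0.72. The limma adjusted p was 0.113 without replicate 1, 0.0739 without replicate 2 and 0.119 without replicate 3. Genes called higher over all tested genes also went from 609 to 337, 375 and 331 in these fits.

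The count models could be run on vector 2 and 3 and nPD-L1 1 and 3 alone. There the log2 fold change of LATS2 was 0.85 in edgeR (quasi-likelihood adjusted p = 0.0577) and 0.84 in DESeq2 (adjusted p = 0.0197). DESeq2 thus called LATS2 on these libraries and edgeR did not. limma on the same 4 libraries gave 0.86 with an adjusted p of 0.0582.

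SAV1 (ENSG00000151748, chr14:50632058-50668331, minus strand), also called Salvador, is the scaffold that joins the MST kinases to LATS. It read 689, 794 and 598 scaled reads in vector and 1078, 979 and 949 in nPD-L1 libraries. The lowest nPD-L1 value lay above the highest vector value, and vector 3 was again the lowest of all. The mean rose from 694 ± 98.3 to 1002 ± 67.5 (SD, n = 3), a fold of 1.45 and a log2 fold change of 0.54 (SE 0.12, 95% interval 0.26 to 0.81, limma adjusted p = 0.0318).

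The call of SAV1 depended on the libraries more than that of LATS2. The limma adjusted p was 0.136 without vector 1 and 0.0685 without vector 3. It was 0.163, 0.115 and 0.103 without nPD-L1 1, 2 and 3. Of all tested genes, 405 were called higher without vector 1 and 679 without vector 3, beside 609 with all libraries. Without nPD-L1 1, 2 and 3 the number was 337, 375 and 331. The log2 fold change over all these reductions, and without vector 2, stayed between 0.44 and 0.64. On the 4 libraries with recovered reads edgeR gave 0.55 (adjusted p = 0.339) and DESeq2 0.54 (adjusted p = 0.414).

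SAV1 and LATS2 were also the members of shortest deposited length, 5630 and 5578 bases. With the trend of fold change on gene length removed, the limma adjusted p was 0.0578 for SAV1 (log2 fold change 0.47) and 0.0260 for LATS2 (0.63). With the trend on GC content removed it was 0.0533 for SAV1 (0.53) and 0.0301 for LATS2 (0.67). LATS2 therefore stayed past the threshold under both, and SAV1 under neither. Of the exonic bases of SAV1, 14.9% overlap ATL1 on the opposite strand. Whether strand was used in counting is not given in the sources used here, so reads there cannot be told apart. ATL1 itself read between 10.1 and 33.6 scaled reads. Of the distinct 50-base stretches of LATS2 transcripts, 0% occur in another gene, LATS1 included.

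**Figure D2:**
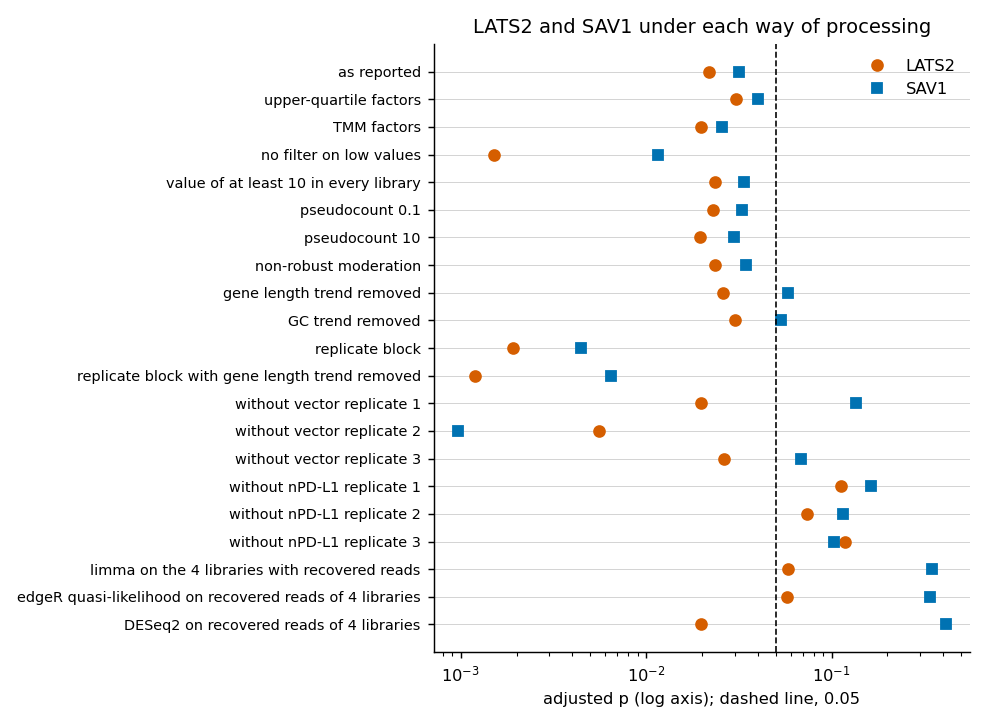
Adjusted p on a log axis for LATS2 (circles) and SAV1 (squares) under each way of processing, with the dashed line at 0.05. LATS2 crosses the line when an nPD-L1 library is left out and in limma and edgeR on 4 libraries, and SAV1 crosses it in 10 of 20 alternatives.

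MOB1A and MOB1B encode the coactivators that bind LATS kinases. MOB1A (ENSG00000114978, chr2:74152528-74178898, minus strand) read 3141, 2846 and 3543 scaled reads in vector and 3227, 3029 and 3323 in nPD-L1 libraries. MOB1B (ENSG00000173542, chr4:70902326-71022449, plus strand) read 473, 505 and 547 in vector and 479, 531 and 639 in nPD-L1 libraries. The groups overlapped for both genes, and replicate 3 was the highest in each group. The log2 fold change of MOB1A was 0.012 (SE 0.11, 95% interval -0.22 to 0.25, limma adjusted p = 0.973), with a sign that turned under other scaling. That of MOB1B was 0.10 (SE 0.13, 95% interval -0.19 to 0.40, limma adjusted p = 0.775).

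NF2 (ENSG00000186575, chr22:29603556-29698598, plus strand) encodes merlin, a tumor suppressor that brings LATS kinases to the membrane. It read 987, 937 and 1326 scaled reads in vector and 981, 920 and 984 in nPD-L1 libraries. Vector 3 stood above the other 5 libraries, which lay between 920 and 987. The log2 fold change was -0.16 (SE 0.13, 95% interval -0.45 to 0.14, limma adjusted p = 0.673), and -0.0011 without vector 3.

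YAP1 (ENSG00000137693, chr11:102110461-102233423, plus strand) encodes the effector YAP. It read 1822, 1740 and 2101 scaled reads in vector and 2091, 2057 and 2373 in nPD-L1 libraries. Vector 3 fell within the nPD-L1 range, so the groups overlapped. The mean was 1888 ± 189 in vector and 2174 ± 174 in nPD-L1 libraries (SD, n = 3), a log2 fold change of 0.21 (SE 0.11, 95% interval -0.036 to 0.45, limma adjusted p = 0.458).

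WWTR1 (ENSG00000018408, chr3:149517235-149736714, minus strand) encodes TAZ, the other effector. It read 3092, 3299 and 3327 scaled reads in vector and 2793, 2888 and 3066 in nPD-L1 libraries. All nPD-L1 values lay below all vector values, a pattern of lower values seen in 8.54% of tested genes. The mean was 3239 ± 128 in vector and 2916 ± 138 in nPD-L1 libraries (SD, n = 3), a log2 fold change of -0.15 (SE 0.093, 95% interval -0.36 to 0.053, limma adjusted p = 0.538). WWTR1 varied little within groups, with a log2 SD of 0.063 that was lower in 4.27% of all tested genes. The antisense gene WWTR1-AS1 covers 9.45% of its exonic bases and read between 16.2 and 32.3 scaled reads.

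**Figure D3:**
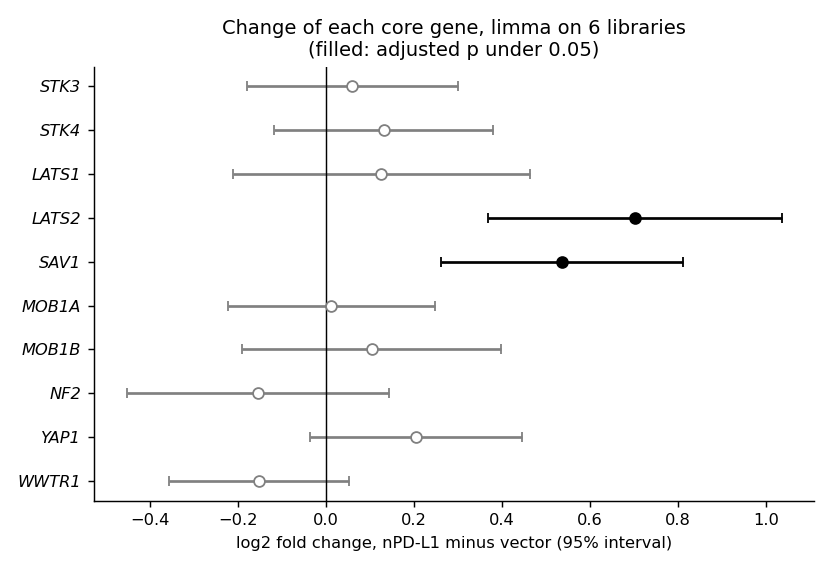
Log2 fold change of nPD-L1 over vector for the 10 Hippo genes, from limma on 6 libraries, with 95% intervals and filled points where the adjusted p was under 0.05. The intervals of LATS2 (0.37 to 1.04) and SAV1 (0.26 to 0.81) lie above 0, and those of the other 8 genes include 0.

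For the 8 members that did not pass the test, the 95% intervals together reached from -0.45 to 0.46 on the log2 scale. A miss of the threshold does not show that their levels were equal. Recovered reads per member and library ran from 361 to 3840, which gives a counting error of 1.61% to 5.26% and leaves out all other error. Of the 10 members, 8 had a smaller log2 SD in nPD-L1 than in vector libraries, as did 65.2% of all tested genes. Library nPD-L1 3 held the highest nPD-L1 value of 8 members, and vector 3 the highest vector value of 6 and the lowest of 3.

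Per kb of deposited gene length, the members spanned a wide range of levels. For the members compared, this length equalled all annotated exon bases of the gene, not the length of the transcripts expressed. Comparisons of levels between members, paralog ratios and shares below included, depend on it. In vector libraries the order by mean scaled reads per kb was MOB1A (493 ± 54.3), WWTR1 (385 ± 15.3), YAP1 (300 ± 30.1), NF2 (151 ± 29.5), SAV1 (123 ± 17.5), LATS2 (86.8 ± 18.2), STK4 (81.7 ± 8.59), LATS1 (73.6 ± 13.6), MOB1B (57.8 ± 4.18) and STK3 (45.5 ± 3.17; SD, n = 3). The effectors were thus more abundant per kb than each of the 4 kinases. The mean of NF2 did not differ from that of SAV1 beyond the larger SD, nor did neighbouring means among LATS2, STK4 and LATS1. In nPD-L1 libraries SAV1 stood at 178 ± 12 and LATS2 at 139 ± 3.41 scaled reads per kb, beside 134 ± 4.99 for NF2. SAV1 and LATS2 each lay above NF2 within every nPD-L1 library. Across those libraries the ranges of LATS2 (135 to 142) and NF2 (128 to 137) overlapped, and those of SAV1 and NF2 did not. WWTR1 (347 ± 16.4) and YAP1 (345 ± 27.6) were level there, and the means of the other members kept their order.

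Ratios of paralogs within a library do not depend on its size factor. The log2 ratio of LATS2 to LATS1 per kb was 0.46, 0.60 and -0.36 in vector and 0.77, 0.97 and 0.69 in nPD-L1 libraries. LATS2 thus made up 57.9%, 60.2% and 43.8% of the summed LATS level per kb in vector and 63.1%, 66.2% and 61.8% in nPD-L1 libraries. Vector 3 was the library in which LATS1 was the more abundant paralog per kb. The mean log2 ratio differed by 0.58, with an exact permutation p of 0.1, the smallest that 3 against 3 libraries allow (two-sided, adjusted p = 0.2 over 4 pairs). Without vector 3 the difference was 0.28.

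The log2 ratio of WWTR1 to YAP1 per kb was 0.34, 0.50 and 0.24 in vector libraries. In nPD-L1 libraries it was -0.0003, 0.071 and -0.049, so that the effectors stood at nearly equal levels per kb there. The groups did not overlap, and the mean ratio went from 1.29 to 1.01 on the linear scale. The mean log2 ratio differed by -0.36 (two-sided exact permutation p = 0.1, adjusted p = 0.2), and by -0.42 to -0.29 with 1 library left out. Neither gene passed the test alone, and the permutation test on 6 libraries could not reach the threshold.

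The other pairs overlapped between groups. The mean log2 ratio of STK3 to STK4 differed by -0.072 (two-sided exact permutation p = 0.8, adjusted p = 0.8), and that of MOB1B to MOB1A by 0.093 (exact permutation p = 0.7, adjusted p = 0.8). No 50-base stretch was shared between the paralogs of any pair, so reads of that length would not be split between them.

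**Figure D4:**
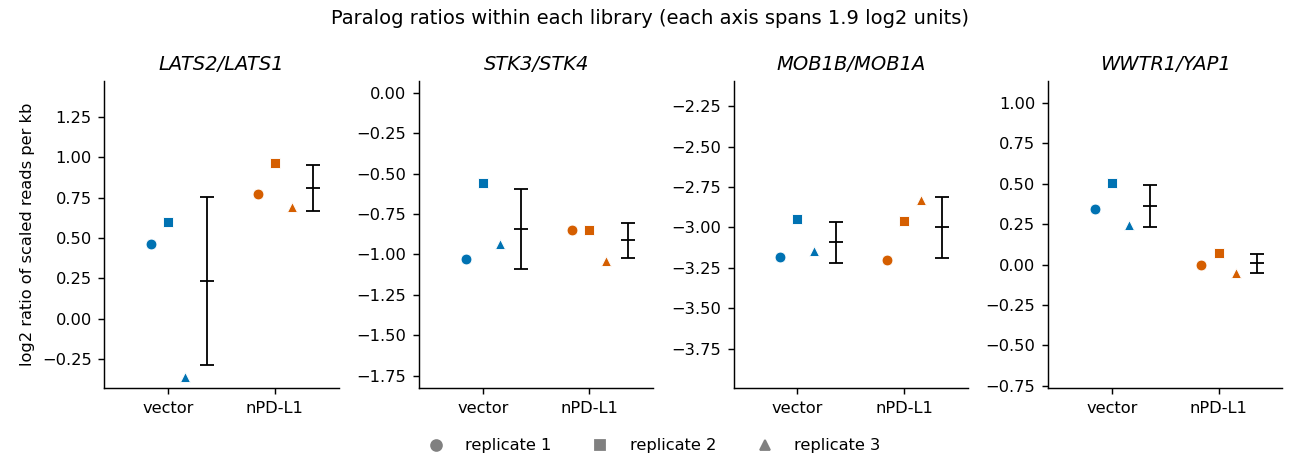
Log2 ratio of scaled reads per kb for 4 pairs of Hippo paralogs in each library, every axis spanning the same number of log2 units, with the bar beside each group its mean ± SD (n = 3). LATS2/LATS1 is higher and WWTR1/YAP1 lower in all nPD-L1 libraries, and the other pairs overlap.

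As a description over 6 libraries, the log2 values of LATS2 and SAV1 had a Pearson r of 0.92, and those of LATS2 and WWTR1 one of -0.86. LATS1 and MOB1A, which did not pass the test, had an r of 0.94. The points share their library scaling and the split into groups. Among 10261 protein-coding genes whose mean reached 100 scaled reads, those most like LATS2 included CACNA1H (r = 0.997) and CCDC32 (r = 0.991). Those most like SAV1 were SERTAD1 (r = 0.992), TBPL1 (r = 0.992) and CRIP2 (r = 0.989). These values of r are among the highest of 10261 for each member, over 6 libraries only. CACNA1H, CCDC32 and TBPL1 did not pass the test (limma adjusted p = 0.218, 0.239 and 0.103), whereas SERTAD1 and CRIP2 did.

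Around the cascade, 95 genes of 6 lists were tested, LATS2 being left out of the output list. Of these, 8 were higher, 2 were lower and 85 did not pass the test, so that 10.5% were called beside 4.96% of all tested genes. Their median log2 fold change was 0.086. The lists were chosen with earlier results of these data known. The shares are therefore a description, and no test was run on them.

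Upstream of the core, 1 of 21 polarity and junction regulators passed the test. FRMD6, a FERM-domain protein that acts ahead of the kinases, read 235, 244 and 343 scaled reads in vector and 729, 614 and 752 in nPD-L1 libraries (log2 fold change 1.36, SE 0.16, limma adjusted p = 0.000556). Of 15 kinases beside MST and LATS, NUAK1, a kinase related to AMPK, was called higher, at 304, 235 and 308 in vector and 1172, 1061 and 1180 in nPD-L1 libraries (log2 fold change 2.02, SE 0.13, limma adjusted p = 6.83e-06). Both fitted changes were larger than that of LATS2. The TAOK and MAP4K kinases, which can phosphorylate LATS beside MST, did not pass the test.

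Of 21 RASSF, Ajuba and STRIPAK genes, 1 was higher and 1 lower. RASSF2, which binds MST kinases, had a log2 fold change of 0.78 (SE 0.13, limma adjusted p = 0.00538), from 337, 312 and 403 to 640, 556 and 599 scaled reads. RASSF1, another partner of the MST kinases, had one of -0.61 (SE 0.15, limma adjusted p = 0.0423), from 393, 333 and 411 to 286, 216 and 242. None of the 11 genes for retention and turnover of YAP and TAZ passed the test. Their median log2 fold change was -0.037.

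Downstream, VGLL3, a cofactor that competes for TEAD, was the called gene among 6 TEAD and VGLL genes. It read 759, 576 and 906 scaled reads in vector and 2015, 1629 and 2015 in nPD-L1 libraries (log2 fold change 1.35, SE 0.16, limma adjusted p = 0.000556). Of 25 other YAP and TAZ output genes, 4 were higher and 1 lower, with a list median of 0.053. CTGF, a matricellular protein, read 1270, 1412 and 513 in vector and 4304, 4302 and 4519 in nPD-L1 libraries (log2 fold change 2.17, SE 0.34, limma adjusted p = 0.00884). Vector 3 was the lowest library for CTGF, as it was for LATS2.

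F3, tissue factor, rose from 30.3 ± 3.01 to 145 ± 7.0 scaled reads and ANKRD1, an ankyrin repeat protein, from 252 ± 77.1 to 491 ± 66.5 (SD, n = 3). GADD45A, a stress response gene, fell from 744 ± 23.7 to 420 ± 22.2. Their log2 fold changes were 2.22, 0.996 and -0.83 with limma adjusted p of 8.09e-05, 0.0168 and 0.000998. ARHGEF17, named because it completes the count, had a log2 fold change of 0.64 (limma adjusted p = 0.0162). Beside these, the change of LATS2, which also belongs to the output list, was close in size to that of ARHGEF17.

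**Figure D5:**
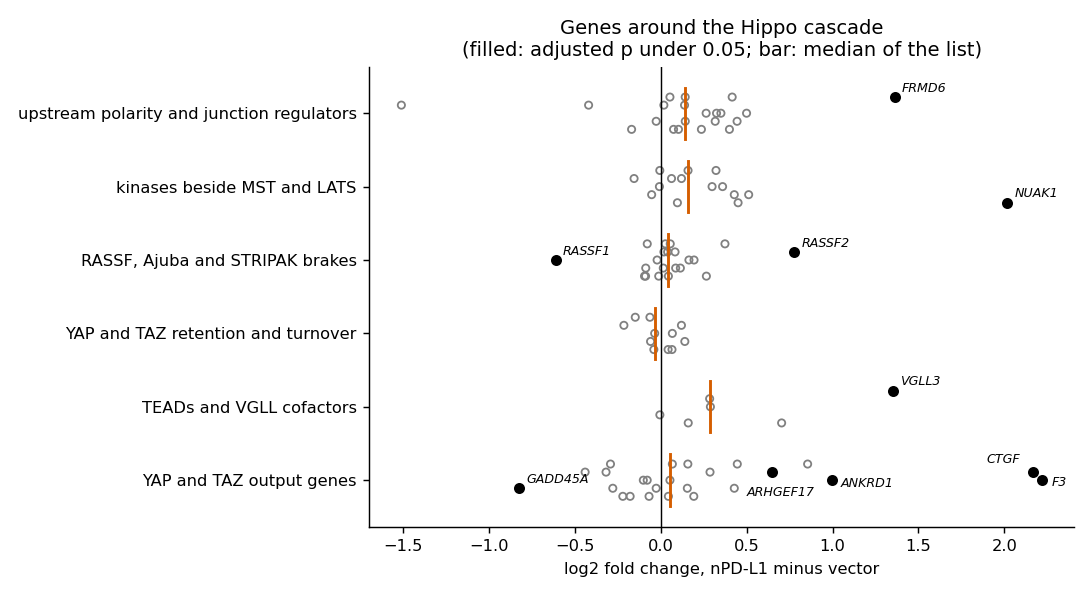
Log2 fold change of nPD-L1 over vector for the genes of 6 lists around the Hippo cascade, with a bar at each list's median. Points are filled and named where the limma adjusted p was under 0.05. AJUBA, AMOTL2, PTPN14 and NUAK2 stand in more than 1 list and have a point in each. The called genes are few in each list and run from -0.83 (GADD45A) to 2.22 (F3).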

How the data were processed

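Total RNA of the 6 libraries was prepared with TRIzol and the NEBNext Ultra RNA kit, sequenced, and, per the labels, aligned with HISAT2 2.0.5 to hg38 after CASAVA base calling. The counter and the size factors are not given in the sources used here, although gene coordinates equalled those of GENCODE 29 for 99.8% of genes. The authors deposited a signal for each gene and library: reads divided by a size factor. They also deposited group means, log2 fold changes and p-values, which were not used. Whole reads could be recovered, with a tolerance of 0.1 reads, in 4 libraries, which held 17427519 to 22253295 reads on genes. For the others the factor was too near 1.

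log2(value + 1) was fitted with limma 3.58.1 (R 4.3.3, eBayes with trend and robust moderation) on genes that reached 10 scaled reads in 3 or more libraries. Tests were two-sided with Benjamini-Hochberg adjustment over all genes tested, called under 0.05 with no fold threshold. Fold changes on this scale understate those of low genes. edgeR 4.0.16 and DESeq2 1.42.0 on 4 libraries, other scalings, filters and pseudocounts, a replicate block, length and GC trends (loess span 0.3) and leaving out libraries were alternatives. Scripts were tested on simulated data. Paralog ratios were compared by exact permutation. Transcript stretches of 50 bases came from GENCODE and promoters from RefSeq.

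All members were named, with the called genes of each list (at most the 4 of largest change), CD274, and for each called member the 3 genes of highest correlation. Some genes that this rule names are not reported here. Members and lists were chosen with earlier results of these data known.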

Additional observations from a re-analysis of the deposited data

How the results depend on the processing

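Of the 10 members, 2 were called higher, and 1 with the gene length trend removed, 1 with the GC trend removed, 0 in limma and 0 in edgeR on the 4 libraries with recovered reads, 1 in DESeq2 on those 4, and 0 to 2 with 1 library left out. Of all 15076 tested genes 609 were called higher, 574 with the length trend removed and 570 with the GC trend removed. On the 4 libraries it was 254 in limma, 264 in edgeR and 333 in DESeq2. With 1 library left out, 331 to 791 of all tested genes were higher. limma on 4 libraries was added after seeing the data, and its smaller number of libraries is part of each comparison with it. No member was called lower under any alternative run, beside 53 to 361 of all tested genes. LATS2 passed the threshold in 15 of 20 alternatives, with a log2 fold change of 0.53 to 0.84 with 1 library left out, 0.86 in limma and 0.85 in edgeR on 4 libraries. Its adjusted p ran from 0.00119 to 0.119. SAV1 passed in 10 of 20, with 0.44 to 0.64 with 1 library left out, 0.47 with the length trend removed, 0.53 with the GC trend removed, and 0.55, 0.55 and 0.54 in limma, edgeR and DESeq2 on 4 libraries. Its adjusted p ran from 0.000965 to 0.414. Signs turned only for members that were not called: LATS1 (-0.021 to 0.25 with 1 library left out), STK3 (-0.084 with the length trend removed, with or without the replicate block), MOB1A (-0.014 with upper-quartile factors, -0.068 with the length trend removed, with or without the block, and -0.064 to 0.094 with 1 library left out) and MOB1B (-0.0060 with the length trend removed, with or without the block, and -0.0087 to 0.20 with 1 library left out). The log2 ratio of STK3 to STK4 differed by -0.16 to 0.069 with 1 library left out. The other members kept their direction and side of the threshold, and the other ratios kept their direction, their permutation test being unable to pass the threshold. The cause of these shifts was not tested.

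The labels do not say that replicate numbers mark pairs, and they were not taken as such. Deviations of same-numbered libraries correlated at -0.013, 0.23 and 0.13, and those of differently numbered ones at -0.22 to 0.080, so numbers 2 and 3, but not 1, correlated best with their own. The replicate block raised the calls over all genes from 609 higher and 139 lower to 927 and 258, and changed no member's call: LATS2 had a limma adjusted p of 0.00190 and SAV1 of 0.00447 with it. Exact sign flips over 3 pairs allow no p under 0.25 for the paralog ratios. Of the genes around the cascade, 8 were called higher and 2 lower. With the block 14 were higher, and with the block and the length trend removed 14 were higher and 5 lower. On 4 libraries limma called 4 and 0, edgeR 4 and 1, and DESeq2 7 and 1. With 1 library left out 6 to 11 were higher and 1 to 5 lower. Over all tested genes limma on 4 libraries called 254 higher and 53 lower, edgeR 264 and 61, and DESeq2 333 and 85. With 1 library left out, 331 to 791 of all tested genes were higher and 76 to 242 lower. With the block and the length trend removed, 782 were higher and 361 lower.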
